A study of Mus musculus with 2 samples.

Results

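In mouse alveolar type 2 cells (type II pneumocytes, the surfactant-producing epithelial cells of the alveolus), 36 genes of the p53 response and of the apoptosis machinery were followed in 2 RNA libraries. The genes were listed by name, as p53 and its targets, the BCL2 family, caspases, inhibitors of apoptosis and death receptors. All 36 were found among the 24369 gene rows of the expression table. One library came from type 2 cells of wild-type (WT) C57BL6 mice at postnatal day 28 (P28) and the other from type 2 cells of WT C57BL6 mice at postnatal day 7 (P07). The labels name no transgene, treatment, sex or number of pooled animals for either library. Levels are RPKM, a read number divided by gene length and by the number of reads in the library. With 1 library per age there is no replicate error and no test, and every difference compares these 2 libraries. The interval beside a ratio is an exact 95% counting interval, which covers counting error only.

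The protein p53 is a transcription factor that is held low by the Mdm2 and Mdm4 proteins and is released by DNA damage and other stress. It then raises genes that slow the cell cycle, adjust metabolism or start apoptosis. In the mitochondrial route, BH3-only proteins neutralise anti-apoptotic BCL2 proteins or activate Bax and Bak1, which open the outer mitochondrial membrane so that an apoptosome of Apaf1 and caspase-9 forms. In the receptor route, Fas and related receptors recruit the adaptor Fadd and caspase-8, and Cflar blocks that step. In the neonatal lung, apoptosis accompanies the remodelling of the alveolar wall.

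Both libraries carried type 2 cell transcripts, and both also held RNA of other cells. The summed RPKM of 12 type 2 markers was 29574 at P28 and 17066 at P07, with Sftpc (surfactant protein C) first in each. The 10 cycling-cell markers summed to 38.3 RPKM at P28 and 85.6 at P07, and 6 of 10 were at least 2-fold lower at P28. Of 10 endothelial markers 6 were 2-fold lower (27.9 against 57.8 RPKM summed), and of 10 fibroblast markers 2 were (11.1 against 27.9). Of 10 type 1 cell markers 2 were lower (266 against 445 RPKM summed). Of 8 erythroid markers 6 were lower (1.73 against 47.9 RPKM summed), and of 6 ciliated cell markers none was 2-fold apart (105 against 95.9 RPKM summed). Of 6 club and secretory airway markers 5 were at least 2-fold higher at P28 (18988 against 7223 RPKM summed). Among 12 immune markers, Marco, C1qa, C1qb, Adgre1 and Cd79a were listed at 0 in both libraries, and the summed 5815 RPKM at P28 and 1643 at P07 was nearly all Lyz2, which type 2 cells also express. Xist had 0.245 RPKM at P28 and 52.7 at P07, while Ddx3y, Kdm5d, Uty and Eif2s3y were at 2.16 to 7.19 RPKM at P28 and listed at 0 at P07. Age therefore cannot be told apart from a difference in sex between the libraries. In these bulk libraries, fewer cells of a type and less RNA per cell cannot be told apart either.

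Start regions of 4 genes are shown because they belong to the results given after them. Bcl2l11 and Casp8 were the members at least 2-fold apart, Ccng1 is a p53 target whose interval lay above 1, and Mdm2 encodes the main inhibitor of p53. The windows run from 250 bases before to 50 bases after a RefSeq gene start on GRCm38.p6, the build that the submitters' processing notes name as GRCm38, read 5′ to 3′ on the gene's strand. They lie at chr2:128125788-128126087 (plus strand) for Bcl2l11, chr1:58802252-58802551 (plus) for Casp8, chr11:40755237-40755536 (minus) for Ccng1 and chr10:117710709-117711008 (minus) for Mdm2. The Casp8 window lies inside the annotated gene, which starts at 58795374, so the region around that start is not shown. Capitals mark the p53 half-site decamer in Ccng1 and Mdm2, and the forkhead core TGTTTAC or its reverse complement in Bcl2l11 and Mdm2.
Bcl2l11: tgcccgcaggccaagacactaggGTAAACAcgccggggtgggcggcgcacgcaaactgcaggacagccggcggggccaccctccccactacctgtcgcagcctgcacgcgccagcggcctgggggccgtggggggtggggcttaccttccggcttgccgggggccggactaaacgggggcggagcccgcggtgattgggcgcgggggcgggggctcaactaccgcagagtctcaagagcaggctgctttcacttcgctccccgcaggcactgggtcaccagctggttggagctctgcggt
Casp8: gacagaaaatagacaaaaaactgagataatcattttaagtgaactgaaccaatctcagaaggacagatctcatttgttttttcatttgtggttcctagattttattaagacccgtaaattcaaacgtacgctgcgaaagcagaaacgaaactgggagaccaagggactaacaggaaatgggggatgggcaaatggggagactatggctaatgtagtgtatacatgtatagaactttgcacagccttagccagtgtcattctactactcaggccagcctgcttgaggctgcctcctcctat
Ccng1: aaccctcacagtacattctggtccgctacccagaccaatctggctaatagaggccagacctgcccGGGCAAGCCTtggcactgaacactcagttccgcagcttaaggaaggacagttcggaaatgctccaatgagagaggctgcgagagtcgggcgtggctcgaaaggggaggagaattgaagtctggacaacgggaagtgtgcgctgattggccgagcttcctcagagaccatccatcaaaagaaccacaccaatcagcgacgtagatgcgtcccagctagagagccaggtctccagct
Mdm2: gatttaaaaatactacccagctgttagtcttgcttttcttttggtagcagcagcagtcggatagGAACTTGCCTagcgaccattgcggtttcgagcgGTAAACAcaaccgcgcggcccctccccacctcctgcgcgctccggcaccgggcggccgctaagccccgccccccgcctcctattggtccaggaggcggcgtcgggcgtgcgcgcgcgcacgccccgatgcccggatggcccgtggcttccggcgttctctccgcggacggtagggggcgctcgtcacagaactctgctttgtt

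The decamer, searched on both strands, starts 185 bases before the gene start in Ccng1 and 186 bases before it in Mdm2. It was present in 9 of 45 start windows of the 31 members that the promoter table holds, against 8.36% of all 32851 windows. The 8 genes with it were Aen, Bax, Birc2, Bmf, Ccng1, Mdm2, Sesn1 and Trp53. Aen counted with 2 overlapping windows that hold the same decamer. A pair of decamers with at most 13 bases between them was in 0 of these 45 windows and in 0.0731% of all. The forkhead core, also searched on both strands, was in 5 of the 45 windows and in 3.65% of all. It lay in windows of Bbc3, Bcl2l11, Eda2r, Mdm2 and Sesn1. The window of Casp8 held neither motif, but the region around the annotated start of that gene was not searched. The 2 motifs did not overlap in Mdm2. A match is only a description of the letters, and binding was not measured.

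Of the 36 genes, 29 reached 1 RPKM in at least 1 library. On a log2 scale of P28 over P07 with 1 RPKM added to each, 1 of these 29, Bcl2l11, was at least 2-fold higher at P28, where 1.18% of all 9653 rows past the same filter were. One of them, Casp8, was at least 2-fold lower, against 1.96% of all rows. The other 27 lay within 2-fold. Each count is a single gene, so neither is a result about the genes as a set. Their median log2 ratio was -0.04, or -0.01 without the filter, and the median of all rows past the filter was -0.08. Their summed level was 163 RPKM at P28 and 162 RPKM at P07.

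The counting intervals gave a finer picture. For 10 of the 29 genes the interval of the RPKM ratio lay wholly above 1, against 18.0% of all 9542 rows with a transcript length. For 9 it lay wholly below 1, against 33.3% of those rows, and for 10 it spanned 1. Those above were Bcl2l11, Sesn2, Casp6, Aen, Trp53inp1, Cflar, Diablo, Ccng1, Zmat3 and Mcl1, in falling order of ratio. Those below were Casp8, Trp53, Casp2, Apaf1, Bak1, Bmf, Xiap, Mdm4 and Mdm2, from the lowest ratio up. The count depended on scaling. The total of all RPKM was 143071 at P28 and 108758 at P07, with 44.0% and 27.9% of it in the 10 most abundant genes. When P28 was rescaled to the total of P07, which moved the median log2 ratio of all rows by -0.28, 2 intervals lay above 1 (Sesn2 and Bcl2l11), against 5.16% of all rows with a length, and 17 of 29 below, against 68.0% of all rows. With that scaling 6 of the 29 log2 ratios changed sign, those of Ccng1, Zmat3, Mcl1, Bcl2l1, Birc3 and Tnfrsf10b, and the intervals of Mcl1 and Zmat3 lay wholly below 1.

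**Figure D1:**
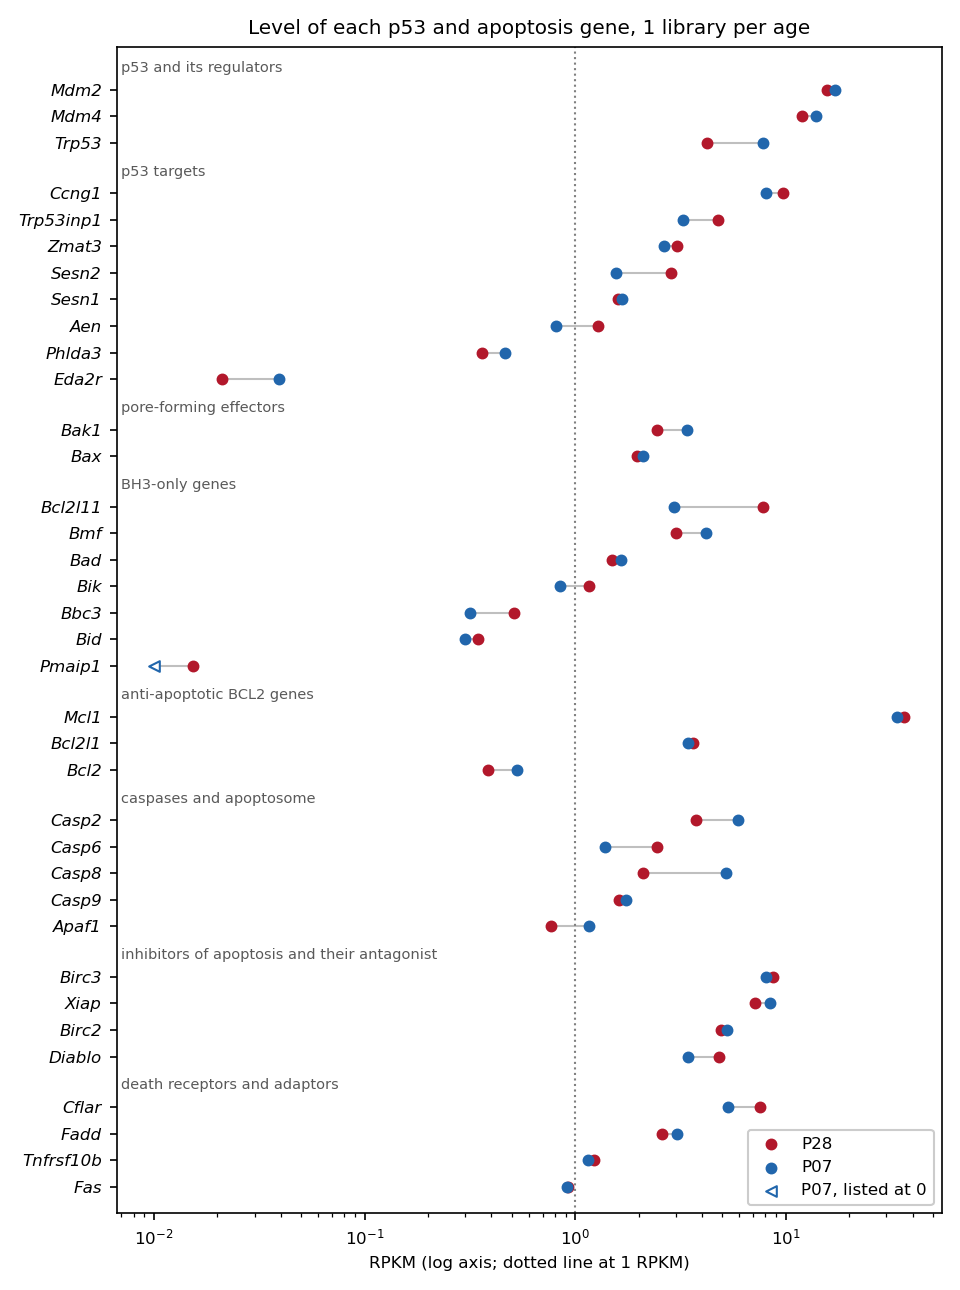
RPKM of each gene at P28 (red) and P07 (blue) on a log axis, grouped by role, 1 library per age. Mcl1 has the highest level in both libraries, and the widest gaps among genes above 1 RPKM are those of Bcl2l11 and Casp8.

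**Figure D2:**
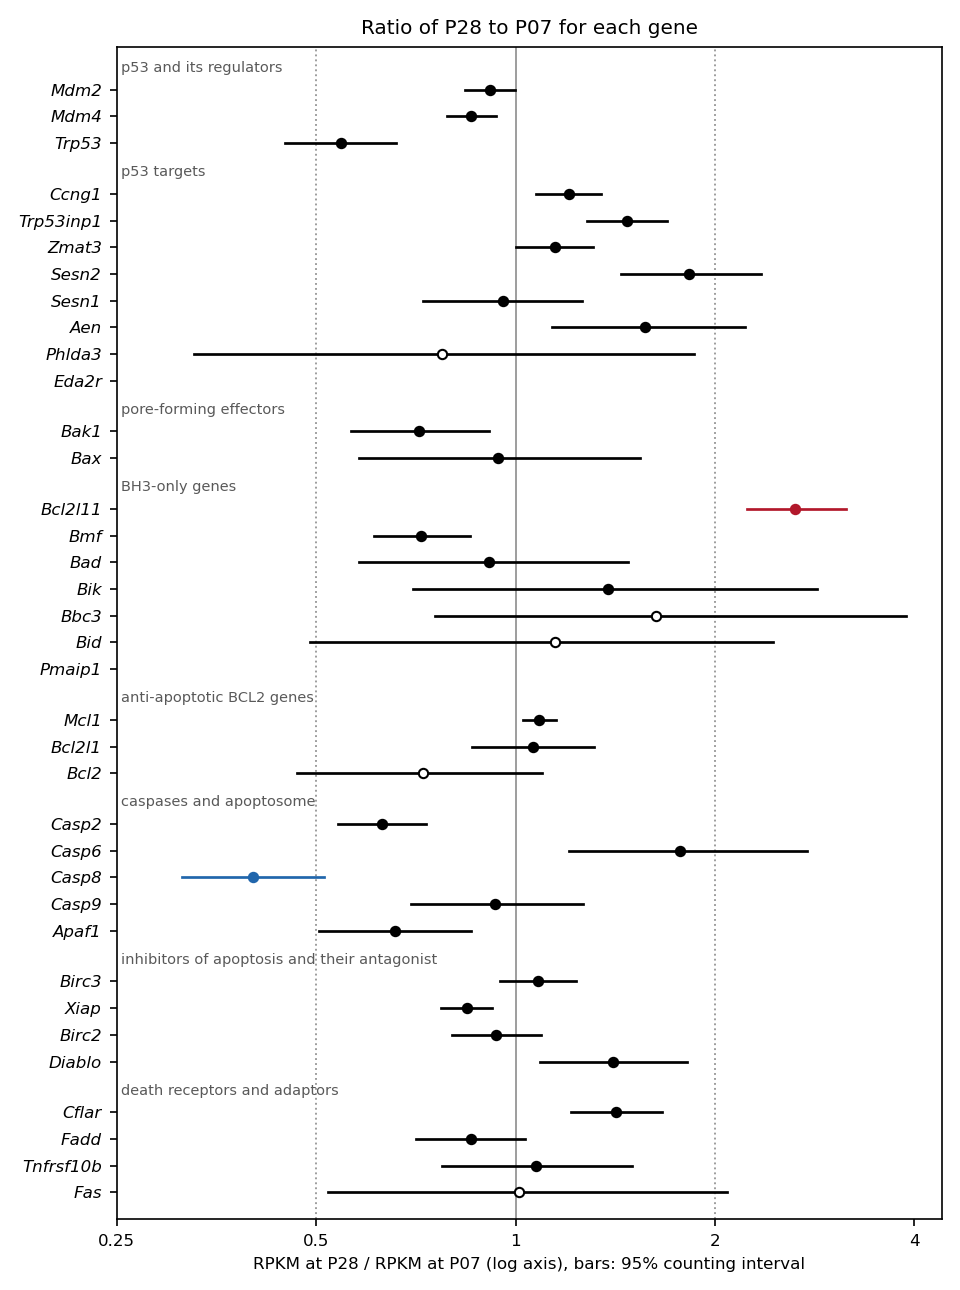
RPKM at P28 divided by RPKM at P07 for each gene (log axis), with exact 95% counting intervals as bars and dotted lines at 2-fold either way. Bcl2l11 (red) and Casp8 (blue) are the genes at least 2-fold apart on the log2(RPKM + 1) scale, open circles are genes under 1 RPKM in both libraries, and Eda2r and Pmaip1, at or under 3 reads in each library, have no ratio.

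Trp53, which encodes p53 itself, was lower at P28, and so to a smaller extent were its inhibitors as deposited. Trp53 (chromosome 11, 69580359 to 69591873, plus strand) had 4.24 RPKM at P28 and 7.78 RPKM at P07. The ratio was 0.545 (0.448 to 0.660) and the log2 ratio -0.74, short of 2-fold as deposited and past it, at -1.05, with equal totals. Mdm2, a ubiquitin ligase that marks p53 for degradation, had 15.7 RPKM at P28 and 17.2 RPKM at P07, a ratio of 0.915 (0.839 to 0.998). Its interval spanned 1 with the median of all rows set to 0 and with equal upper quartiles. Mdm4, a relative of Mdm2 that blocks p53 activity, had 11.9 RPKM at P28 and 13.9 RPKM at P07, a ratio of 0.858 (0.789 to 0.933). Both inhibitor transcripts stood above Trp53 in each library. The Trp53 level was 0.270 of the Mdm2 level at P28 and 0.453 of it at P07, a comparison inside each library that no scaling changes. Between the libraries that proportion differed 0.596-fold (0.481 to 0.736).

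Of 8 p53 targets, 6 reached 1 RPKM and none was 2-fold apart. For 5 of the 6 the interval lay above 1 as deposited and for 0 below, against 18.0% and 33.3% of all rows. That direction depends on scaling. With equal totals 1 lay above 1 and 2 below, against 5.16% and 68.0% of all rows. Both counts also depend on which members were placed in this group. The p53 targets Bbc3 and Pmaip1 were counted with the BH3-only genes, and Mdm2, Apaf1, Bax, Fas and Tnfrsf10b under other roles. As deposited, none of these genes had an interval above 1, and those of Mdm2 and Apaf1 lay below. Aen passed the filter through P28 alone, the library where it was higher. Sesn2, a stress-induced inhibitor of mTORC1 signalling, had 2.85 RPKM at P28 and 1.56 RPKM at P07, a ratio of 1.82 (1.44 to 2.35). Its relative Sesn1 had 1.60 RPKM at P28 and 1.67 RPKM at P07, with an interval of 0.724 to 1.26 that spanned 1. The pair of sestrins thus differed from one another in these libraries, and the Sesn2 interval lay wholly above that of Sesn1.

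Trp53inp1, a stress-induced nuclear protein gene linked to autophagy and apoptosis, had 4.79 RPKM at P28 and 3.25 RPKM at P07, a ratio of 1.47 (1.28 to 1.69). Aen, an apoptosis-enhancing nuclease, had 1.28 RPKM at P28 and 0.814 RPKM at P07, a ratio of 1.57 (1.14 to 2.22). Ccng1, cyclin G1, was the most abundant target, with 9.71 RPKM at P28 and 8.08 RPKM at P07 and a ratio of 1.20 (1.07 to 1.34). Zmat3, an RNA-binding zinc finger protein gene, had 3.03 RPKM at P28 and 2.64 RPKM at P07, a ratio of 1.15 (1.00 to 1.31). The remaining targets were scarce. Phlda3, a repressor of Akt, had 0.360 RPKM at P28 and 0.464 RPKM at P07 from 13 and 12 reads. The receptor gene Eda2r had 0.0210 RPKM at P28 and 0.0390 RPKM at P07, from 2 and 3 reads, which gives no fold. The median log2 ratio of the 6 targets past the filter was 0.28 and that of all 8 was 0.19. With equal totals the first became 0.0023, against -0.36 for all rows past the filter, and of these targets Sesn2 had the interval above 1. Of 13 dissociation-response genes, summing to 298 RPKM at P28 and 238 RPKM at P07, 4 were at least 2-fold higher at P28, against 1.18% of all rows. They were the heat shock genes Hsph1, Dnajb1, Hspa1a and Hspa1b, the last 2 past the filter through P28 alone. As deposited, 9 of the 13 had intervals above 1 and 2 (Jun and Ier3) below, against 18.0% and 33.3% of all rows. Those of Fos and Ier2 spanned 1. With equal totals 5 of the 13 lay above 1 and 5 below, against 5.16% and 68.0% of all rows. The part of these genes in the sestrin and Trp53inp1 values was not tested.

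A list of 25 further p53 target genes was read beside these. On the log2 scale with 1 RPKM added, none of its 17 genes past the filter was 2-fold apart, and the median log2 ratio was 0.11. Intervals of 7 lay above 1, where 18.0% of all rows did, and those of 3 below, where 33.3% did. With equal totals 1 lay above and 10 below, against 5.16% and 68.0% of all rows. The median log2 ratio was then -0.23, against -0.36 for all rows past the filter. Tigar and Xpc, among the 7 above 1 as deposited, passed the filter through P28 alone, the library where they were higher. These 2 genes, and Cdkn1a and Ddit4, are named after their values were seen. Cdkn1a, the cell cycle inhibitor p21 and a standard readout of p53 activity, had 10.7 RPKM at P28 and 10.4 RPKM at P07, a ratio of 1.03 (0.875 to 1.21). Btg2, an antiproliferative gene, had 24.8 RPKM at P28 and 18.6 RPKM at P07. Dram1, a lysosomal membrane gene linked to autophagy, had 184 RPKM at P28 and 155 RPKM at P07, the highest level of those named. Plk2, a polo-like kinase gene, had the lowest ratio among those past the filter, with 5.07 RPKM at P28 and 9.87 RPKM at P07 (0.513, 0.446 to 0.590). Ddit4, an inhibitor of mTORC1 like the sestrins, had 3.50 RPKM at P28 and 1.38 RPKM at P07, a ratio of 2.53 (1.78 to 3.62) and a log2 ratio of 0.92. Of 19 regulators of p53, 14 passed the filter, and 8 of these had intervals below 1 and none above, against 33.3% and 18.0% of all rows. With equal totals 13 of the 14 lay below, against 68.0% of all rows. The 8 included Hipk2, a kinase that phosphorylates p53, with 9.98 RPKM at P28 and 16.01 RPKM at P07, and the acetyltransferase gene Crebbp with 11.2 RPKM at P28 and 15.8 RPKM at P07. The ubiquitin ligase gene Huwe1 had 12.6 RPKM at P28 and 16.8 RPKM at P07.

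Bcl2l11, which encodes the BH3-only protein Bim, gave the largest positive log2 ratio of the 36 genes. The gene (chromosome 2, 128126038 to 128162547, plus strand, protein coding) had 7.77 RPKM at P28 and 2.94 RPKM at P07, from about 636 and 172 reads. The ratio was 2.65 (2.24 to 3.16) and the log2 ratio 1.16, which ranked 76 from the top among the 9653 rows. No exon of it overlaps another annotated gene in GENCODE M21. With equal totals its log2 ratio was 0.81 and no longer 2-fold. Among members within 2-fold, the nearest to it was Sesn2, with a log2 ratio of 0.59.

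Among the other BH3-only genes the intervals of Bmf, Bad and Bid did not reach the Bcl2l11 ratio, while those of Bik and Bbc3 held it. Bmf, whose product is released from the cytoskeleton under stress, had 3.02 RPKM at P28 and 4.19 RPKM at P07, a ratio of 0.720 (0.611 to 0.854). Bad, an antagonist of Bcl2l1 controlled by phosphorylation, had 1.497 RPKM at P28 and 1.64 RPKM at P07. Bik had 1.16 RPKM at P28 and 0.843 RPKM at P07, and both intervals spanned 1. Bid, Bbc3 and Pmaip1 stayed under 1 RPKM in both libraries. Bid, which links the receptor route to mitochondria, had 0.344 RPKM at P28 and 0.300 RPKM at P07. Bbc3, the p53 target Puma, had 0.514 RPKM at P28 and 0.316 RPKM at P07, from 23 and 10 reads with an interval of 0.755 to 3.88. Pmaip1, the p53 target Noxa, had 1 read at P28 (0.0153 RPKM) and none at P07, where 3 reads would have been 0.0626 RPKM. A difference in Pmaip1 was not detectable at this depth, and the Bbc3 interval left room for a difference of either sign. The 7 BH3-only genes summed to 14.3 RPKM at P28 and 10.2 RPKM at P07, and Bcl2l11 was the most abundant of them at P28 while Bmf was at P07.

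The pore-forming effectors were low in both libraries. Bax had 1.97 RPKM at P28 and 2.09 RPKM at P07, a ratio of 0.940 (0.580 to 1.54). Bak1 had 2.44 RPKM at P28 and 3.40 RPKM at P07, a ratio of 0.716 (0.565 to 0.911). Of these effectors Bak1 had the interval below 1, and its exons overlap the opposite-strand gene Ggnbp1, whose reads cannot be told apart without strand.

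Mcl1, a short-lived anti-apoptotic BCL2 protein gene, was the most abundant of the 36 genes. It had 36.6 RPKM at P28 and 33.7 RPKM at P07, above 98.6% and 98.5% of all rows, with a ratio of 1.09 (1.03 to 1.15) as deposited and 0.826 (0.781 to 0.874) with equal totals, so that its direction depends on the scaling. Bcl2l1, which encodes Bcl-xL, had 3.64 RPKM at P28 and 3.43 RPKM at P07, with an interval that spanned 1 as deposited. Bcl2 itself stayed under the filter, with 0.384 RPKM at P28 and 0.528 RPKM at P07. The anti-apoptotic genes kept this order, Mcl1 over Bcl2l1 over Bcl2, in both libraries. Inside each library, Bcl2l11 stood at 0.212 of the Mcl1 level at P28 and 0.0872 of it at P07, a 2.43-fold difference (2.04 to 2.93) that does not depend on scaling. Against Bcl2l1 it stood at 2.13 at P28 and 0.856 at P07, so the order of these 2 genes was opposite in the libraries. Bax relative to Bcl2l1 was 0.540 at P28 and 0.610 at P07, with an interval of the difference of 0.520 to 1.52.

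Among 16 further BCL2 family and mitochondrial genes, 11 passed the filter and none was 2-fold apart, with a median log2 ratio of 0.10. Intervals of 3 lay above 1 and those of 2 below, against 18.0% and 33.3% of all rows. With equal totals 1 lay above and 6 below, against 5.16% and 68.0%. Bnip3, a mitophagy receptor gene, had 14.1 RPKM at P28 and 8.83 RPKM at P07, a ratio of 1.60 (1.39 to 1.86). Its relative Bnip3l had 14.4 RPKM at P28 and 19.0 RPKM at P07, a ratio of 0.757 (0.696 to 0.823). These relatives thus differed in opposite directions as deposited. Vdac2, a channel of the outer mitochondrial membrane, had 16.5 RPKM at P28 and 18.8 RPKM at P07.

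Casp8, the initiator caspase of the receptor route, gave the most negative log2 ratio of the 36 genes. The gene (chromosome 1, 58795374 to 58847503, plus strand, protein coding) had 2.09 RPKM at P28 and 5.22 RPKM at P07, from about 105 and 187 reads. The ratio was 0.401 (0.314 to 0.514) and the log2 ratio -1.01, rank 9470 from the top of 9653. It lay just past the 2-fold limit, was at -1.26 with equal totals, and fell short of 2-fold when the median of all rows was set to 0. The nearest member short of the limit was Trp53. All 10 cycling markers, 9 of 10 endothelial markers (all but Esam) and 9 of 10 type 1 cell markers (all but Aqp5) had intervals below 1. Among all rows 33.3% had. Of the 6 fibroblast markers past the filter 5 had intervals below 1 (Fbln5, Postn and 3 collagens). Among the markers with intervals below 1, Emcn, Cldn5, Postn, Mcm2, Cdk1 and Birc5 passed the filter through P07 alone, the library where they were higher. Dcn had 1.35 RPKM at P28 and 0.490 RPKM at P07. Under the filter, Pdgfra had 0.730 RPKM at P28 and 0.152 RPKM at P07, and Pdgfrb 0.0451 RPKM at P28 and 0.650 RPKM at P07. Lum and Tcf21 had at most 9 reads in either library. The part of these cells in the Casp8 and Trp53 values was not tested.

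Casp2, a caspase activated on the PIDDosome, had 3.73 RPKM at P28 and 5.94 RPKM at P07, a ratio of 0.629 (0.540 to 0.733). Apaf1, the scaffold of the apoptosome, had 0.763 RPKM at P28 and 1.16 RPKM at P07, a ratio of 0.657 (0.506 to 0.857), and passed the filter through P07 alone. Casp9, which the apoptosome activates, had 1.62 RPKM at P28 and 1.73 RPKM at P07, with an interval of 0.695 to 1.26. Casp6, an effector caspase, had 2.45 RPKM at P28 and 1.39 RPKM at P07, a ratio of 1.77 (1.21 to 2.75). It was the gene of this group with an interval above 1 as deposited, which it no longer had with equal totals. The 5 caspase and apoptosome genes summed to 10.7 RPKM at P28 and 15.4 RPKM at P07.

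The further list of 14 caspase and caspase substrate genes had 8 past the filter, none 2-fold apart, with a median log2 ratio of -0.33. Intervals of 5 lay below 1 and that of 1 above, against 33.3% and 18.0% of all rows. With equal totals 7 lay below and 0 above, against 68.0% and 5.16%. Htra2, among the 5, and Dffa passed the filter through P07 alone, the library where they were higher. Both are named after their values were seen. Cycs, cytochrome c, had the interval above 1 as deposited, with 6.23 RPKM at P28 and 5.22 RPKM at P07. Acin1, a caspase substrate of chromatin condensation, had 4.40 RPKM at P28 and 5.61 RPKM at P07.

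In the receptor route, the inhibitor was higher and the caspase that it restrains lower at P28 as deposited, while with equal totals the inhibitor's ratio was 1.08 and its interval no longer above 1. Cflar, which encodes the caspase-8-like inhibitor c-FLIP, had 7.52 RPKM at P28 and 5.31 RPKM at P07, a ratio of 1.42 (1.21 to 1.67). Its read numbers, and intervals that use them, rest on the mean of transcript lengths from 351 to 6572 bases. With the shortest length its interval no longer lay wholly above 1. Inside each library the Casp8 level was 0.278 of the Cflar level at P28 and 0.983 of it at P07. This proportion differed 0.283-fold (0.211 to 0.381) between the libraries, whatever the scaling. Cflar and Casp8 lie on the same strand of chromosome 1 with 36.5 kb between them, which holds 1 annotated gene, Gm3841. Relative to Fadd, the adaptor that binds it, Casp8 stood at 0.807 at P28 and 1.72 at P07. In all 8 such gene pairs were computed, chosen after the values were seen.

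Fas and Tnfrsf10b were low, and their intervals spanned 1. Fas had 0.926 RPKM at P28 and 0.914 RPKM at P07, from 23 and 16 reads, a ratio of 1.01 (0.521 to 2.09). Tnfrsf10b, the mouse TRAIL receptor, had 1.23 RPKM at P28 and 1.15 RPKM at P07, a ratio of 1.07 (0.776 to 1.4997). Fadd had 2.59 RPKM at P28 and 3.03 RPKM at P07, a ratio of 0.856 (0.708 to 1.03), and its interval lay below 1 with equal totals. As deposited, the widths of these 3 intervals leave room for differences of either sign. Of 18 further death receptor genes 10 passed the filter, none 2-fold apart. Intervals of 3 lay above 1 and those of 5 below, against 18.0% and 33.3% of all rows. With equal totals 1 lay above and 7 below, against 5.16% and 68.0%. Tnfrsf1a, a TNF receptor, had 4.09 RPKM at P28 and 6.11 RPKM at P07 (0.670, 0.552 to 0.807), and Fem1b 13.1 RPKM at P28 and 12.3 RPKM at P07. Other genes of this list are named after their values were seen. Tnfrsf21, another death receptor gene, had 2.38 RPKM at P28 and 1.38 RPKM at P07, a ratio of 1.73 (1.33 to 2.23). Tnfsf10, which encodes the ligand TRAIL, had 1.04 RPKM at P28 and 1.47 RPKM at P07, a ratio of 0.711 (0.553 to 0.916). The ligand genes Fasl and Tnf had at most 2 reads in either library. Traf3, among the 5 with intervals below 1 as deposited, passed the filter through P07 alone, the library where it was higher.

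Of the inhibitors of apoptosis Xiap had an interval below 1 as deposited, joined with equal totals by Birc2 and Birc3, and their antagonist Diablo had one above 1 as deposited but not with equal totals. Birc3 and Birc2 are related ubiquitin ligases of TNF receptor signalling. Birc3 had 8.67 RPKM at P28 and 8.02 RPKM at P07, a ratio of 1.08 (0.947 to 1.23). Birc2 had 4.93 RPKM at P28 and 5.26 RPKM at P07, a ratio of 0.936 (0.802 to 1.09). Xiap, a direct inhibitor of caspases, had 7.13 RPKM at P28 and 8.45 RPKM at P07, a ratio of 0.844 (0.772 to 0.922). Diablo (Smac), the mitochondrial protein that displaces these inhibitors, had 4.82 RPKM at P28 and 3.44 RPKM at P07, a ratio of 1.40 (1.09 to 1.82), although its exons overlap other annotated genes. Diablo was at 0.676 of the Xiap level at P28 and 0.407 of it at P07, a 1.66-fold difference (1.27 to 2.19). Of 7 further genes of this family 2 passed the filter, Birc5 through its P07 level alone. Both had intervals below 1, where 33.3% of all rows did. Birc6 had 7.45 RPKM at P28 and 9.25 RPKM at P07, and Birc5 (survivin, also a gene of mitosis and named after its values were seen) had 0.536 RPKM at P28 and 1.40 RPKM at P07. The cycling markers, which include Birc5, were lower at P28, and their part in its value was not tested.

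**Figure D3:**
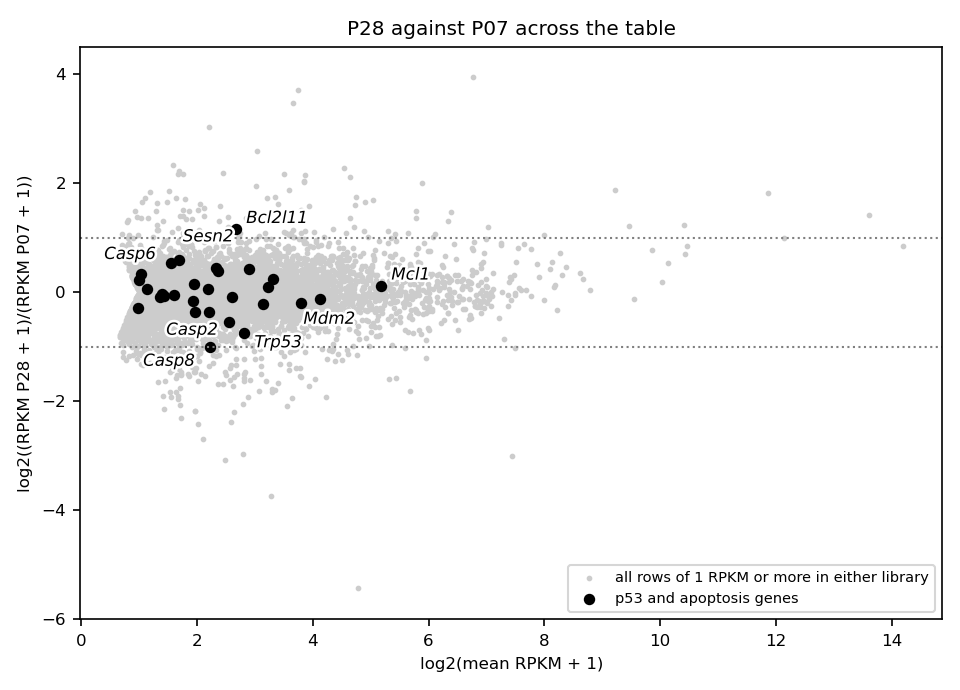
Log2 ratio between the libraries (P28 over P07, 1 RPKM added to each) against mean level for the 9653 rows of 1 RPKM or more in either library (grey) and the 29 p53 and apoptosis genes among them (black). Bcl2l11 lies above the upper dotted line (2-fold higher) and Casp8 at the lower one, while the other 27 lie between.

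**Figure D4:**
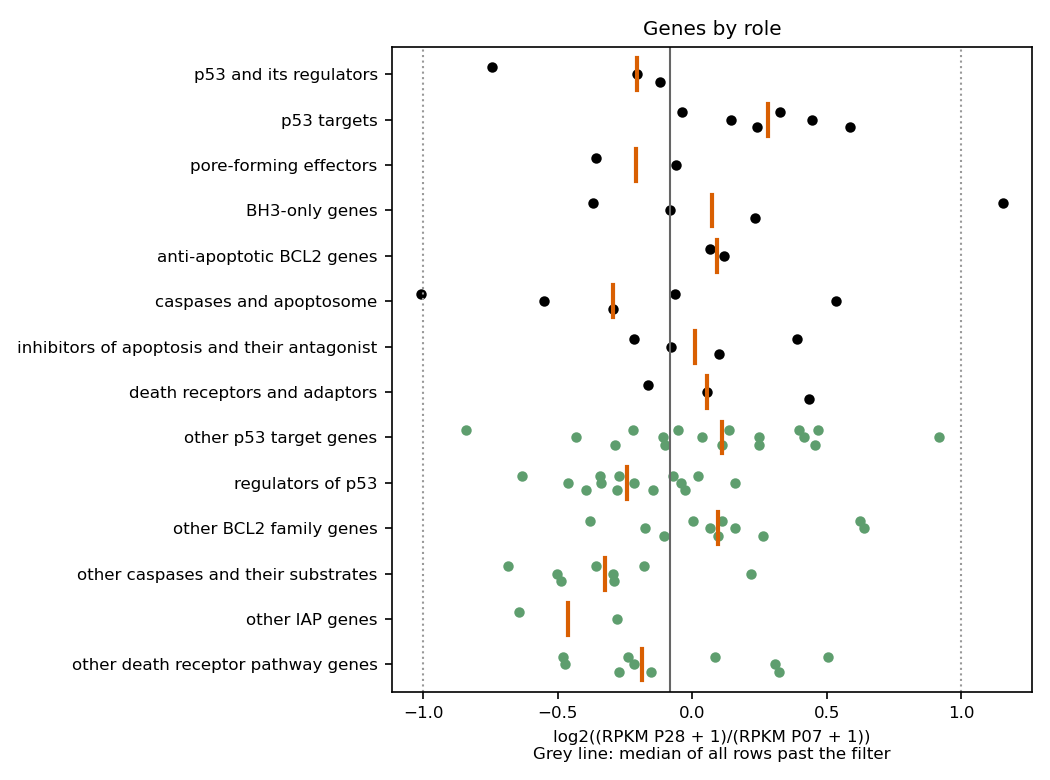
The same log2 ratio for each gene past the filter by role, for the 36 listed genes (black, 29 shown) and the further pathway lists (green, 62 shown), with orange bars at group medians. The p53 targets, without those placed under other roles, have a median of 0.28, and p53 with its inhibitors -0.21. No gene of the further lists reaches 2-fold.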

How the data were processed

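The authors deposited RPKM values, 1 column per library, per the file headers. The submitters' processing notes name TopHat2 2.0.9 and GRCm38 (mm10), with no role given. Which program made the RPKM, on which annotation, whether strand was used and how cells were sorted is not given in the sources used here. Columns were matched by title and 0 were unused. Members, lists and the rule for named genes were chosen with earlier results of these data known. The rule named all 36 members and, in each further list, every gene at 2-fold plus at most 3 others, those furthest from a log2 ratio of 0 among genes reaching 5 RPKM. Genes named outside it are marked as chosen after their values were seen.

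For genes with a single RefSeq-linked GENCODE M21 transcript length, the product of a low RPKM and the length was a whole number of steps, within 0.05, for 59.1% of 2279 genes at P28 and 60.3% of 2482 at P07. The steps, 0.0408 and 0.0569 RPKM for 1 read on 1 kb, taken as the value of a single read, correspond to about 24509800 and 17574700 reads in the denominators. The read numbers recovered over all genes with a length summed to about 6940760 at P28 and 4508280 at P07. Both sums are well below the denominators, and what fills the gap was not tested. That the smallest step is 1 read is an assumption, on which all read numbers, floors and intervals rest. Read numbers use these steps and the mean transcript length (20 of 36 members have a single one), and intervals are Clopper-Pearson. Reads from PCR without molecular identifiers do not count separate molecules; intervals and floors of 3 reads therefore cover counting error only. Log2 ratios used a pseudocount of 1 RPKM, which understates low genes, and a filter of 1 RPKM in at least 1 library. Exons of 8 members overlap another gene, 7 of them one on the opposite strand. Promoter windows are RefSeq sequences of GRCm38.p6. The procedure was tested on simulated data. Python 3.11.15, numpy 2.4.6, pandas 2.3.3 and scipy 1.17.1 were used.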

Additional observations from a re-analysis of the deposited data

How the results depend on the processing

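With 1 library per age no replicate could be left out and no paired fit made. Across 9 alternatives, Bcl2l11 had log2 ratios of 0.69 to 1.37 and was 2-fold higher in 7, and Casp8 had -1.28 to -0.53 and was 2-fold lower in 6. With a pseudocount of 5, 0 genes were higher and 0 lower. With equal totals, 0 were higher and 2 lower (Casp8 and Trp53), the median log2 ratio of the members was -0.27, and 2 intervals lay above 1 and 17 below, against 5.16% and 68.0% of all rows (scaling the intervals was added after seeing the data). All rows then split into 62 higher and 388 lower, against 114 and 189 as deposited. With the median of all rows set to 0, and with equal upper quartiles, 0 members were lower. The members' median turned to 0.043 with the median of all rows set to 0 and to 0.0088 with the filter on the mean level. With the shortest transcripts 8 intervals lay above 1, those of Aen and Cflar no longer among them. Of 243 single values under the alternatives, 32 left their counting interval. With equal totals 6 of 29 log2 ratios changed sign (Ccng1, Zmat3, Mcl1, Bcl2l1, Birc3 and Tnfrsf10b), and with the median of all rows set to 0 Sesn1 did. Genes with few reads, such as Pmaip1, Eda2r, Bbc3 and Bid, are limited by depth.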
